A study of Mus musculus with 3 samples.

Results

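The endothelial junction and barrier genes are 9 genes whose proteins hold the cells of blood vessel walls together: Cdh5, Pecam1, Cldn5, Esam, Jam2, Jam3, F11r, Tjp1 and Ocln. They were listed by role, out of 21883 protein-coding genes, and were examined for binding of FOXF1, a forkhead transcription factor that the developing lung needs for its mesenchyme and vessels. The binding was recorded by ChIP-seq, chromatin immunoprecipitation followed by sequencing, from wild-type C57BL/6 whole lung at embryonic day 18.5. The 2 biological replicates were each made from a pool of 3 lungs, and a 2% input of the same tissue was the control for both. The authors called peaks separately in each replicate, and each entry is a peak's summit with a score, their −log10 significance over the input. No other genotype, treatment or age was sampled, so the data hold no contrast between conditions. Whole lung contains many cell types, and in which of them a site was bound cannot be told apart.

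Sites shared by the replicates were pairs of summits, 1 from each, that were each other's nearest and lay at most 100 bp apart. A site belonged to a gene if it lay inside it, or within 100 kb with that gene's end as the nearest end of any protein-coding gene. By this rule 103 of the 51013 shared sites belonged to the 9 genes. The replicate 1 list held 107378 summits on the nuclear chromosomes and the replicate 2 list held 61172. How many reads lie behind them was not at hand, so the scores were ranked within each replicate and their sizes were not compared between replicates. Positions are on mm10 and 1-based, and "left" means the end with the lower coordinate.

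Endothelial cells are joined by adherens junctions, built on the cadherin encoded by Cdh5, and by tight junctions, which contain claudins, occludin and the junctional adhesion molecules. Scaffold proteins such as the Tjp1 product couple these membrane proteins to actin. The junctions limit the passage of fluid and blood cells through the vessel wall. Several of these proteins are not restricted to vessels: Ocln, Tjp1 and F11r are also used by epithelium.

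Promoter sequence was at hand for 4 of the 9 genes, and all 4 genes are shown. A FOXF1 summit lay in or next to each printed promoter. Each line gives the 250 bases before an annotated start, 5′ to 3′, from RefSeq on GRCm38.p6. They are chr16:18776597-18776846 on the plus strand for Cldn5, chr1:171437311-171437560 on the plus strand for F11r, chr7:65371245-65371494 on the minus strand for Tjp1, and chr13:100552499-100552748 on the minus strand for Ocln. Capitals mark a match to one of the motifs searched.
Cldn5: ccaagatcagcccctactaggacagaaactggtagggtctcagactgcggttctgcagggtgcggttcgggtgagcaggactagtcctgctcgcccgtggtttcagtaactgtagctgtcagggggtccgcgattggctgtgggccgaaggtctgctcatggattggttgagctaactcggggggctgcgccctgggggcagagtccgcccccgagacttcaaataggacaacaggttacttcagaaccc
F11r: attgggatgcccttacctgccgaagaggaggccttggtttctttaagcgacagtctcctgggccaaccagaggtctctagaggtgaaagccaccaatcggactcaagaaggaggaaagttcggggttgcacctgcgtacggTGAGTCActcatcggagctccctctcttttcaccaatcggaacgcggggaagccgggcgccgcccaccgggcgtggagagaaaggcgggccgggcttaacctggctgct
Tjp1: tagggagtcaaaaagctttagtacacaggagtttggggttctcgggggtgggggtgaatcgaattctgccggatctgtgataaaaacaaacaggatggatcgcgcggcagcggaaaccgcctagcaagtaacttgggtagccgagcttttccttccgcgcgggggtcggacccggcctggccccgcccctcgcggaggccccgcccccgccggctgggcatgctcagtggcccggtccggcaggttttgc
Ocln: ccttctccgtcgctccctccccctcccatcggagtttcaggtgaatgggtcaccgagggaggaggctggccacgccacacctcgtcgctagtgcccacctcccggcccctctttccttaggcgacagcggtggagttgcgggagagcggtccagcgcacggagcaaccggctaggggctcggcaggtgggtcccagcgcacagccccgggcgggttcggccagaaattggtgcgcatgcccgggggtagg

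The motifs were the forkhead cores TGTTTAC and TGTTTGC, the looser forkhead core TGTTTNC that includes both of them, the ETS cores CCGGAA and AGGAAG, and the AP-1 site TGANTCA, each on both strands. The only match in the printed bases was TGAGTCA in F11r, an AP-1 site 109 to 103 bases before the start. Another annotated start of Ocln, at 100552718, had CCGGAA 227 to 222 bases before it. Over all 32851 promoter windows of the same length, TGTTTAC was found in 3.17%, TGTTTGC in 4.30%, TGTTTNC in 17.8%, CCGGAA in 12.0%, AGGAAG in 29.5% and TGANTCA in 6.75%. A missing match says only that these letters are not in these bases. By the F11r start the nearest summits of both replicates lay after it, outside the bases searched.

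At the starts of F11r and Ocln the summits of both replicates lay close together, and at those of Tjp1 and Cldn5 they did not. In F11r, which encodes a junctional adhesion molecule of endothelium, epithelium and platelets, the summits lay 35 bases after the start in replicate 1 (score 82.5) and 64 bases after it in replicate 2 (score 56.3). In Ocln, which encodes the tight junction protein occludin, they lay 98 and 89 bases before the start at 100552498, scoring 33.1 in replicate 1 and 27.8 in replicate 2. These 2 starts therefore had a shared site, while the next 2 had a close summit in replicate 2 only.

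In Tjp1, whose product is a tight junction scaffold, a replicate 2 summit lay 116 bases before the start at 65371244, with a score of 84.9 that exceeded 97.0% of that list. The nearest replicate 1 summit lay 2397 bases before the start, with a score of 164. It was paired with another summit of replicate 2, 5 bp away, with a score of 92.7. In Cldn5, which encodes the main claudin of endothelial tight junctions, a replicate 2 summit lay 50 bases before the start, with a score of 38.9. The nearest replicate 1 summit lay 850 bases before it and was paired with another summit of replicate 2 at the same base. Counting windows of 250 bases before to 50 after a start, 2 of the 5 windows of these genes held a shared site, against 15.7% of all windows, and 3 of the 5 held a replicate 2 summit, against 18.8%. With so few windows these shares cannot be set apart.

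Each of the 9 genes carried several FOXF1 sites. A shared site fell to 9 of 9 genes, against 60.7% of all protein-coding genes, and the number per gene was 4 to 31 with a median of 8, against a median of 1 over all protein-coding genes. A gene's territory, meaning the gene plus the outside bases that would fall to it by the rule, had a median of 79.8 kb here and 49.6 kb over all genes. Per 100 kb of territory the median was 10.9 sites in the 9 genes and 1.55 over all genes. The genes were listed by role and with earlier results of these data known, and no test over a list is given. By single lists, without pairing, the median of the 9 genes was 16 summits in replicate 1 and 10 in replicate 2. Over all protein-coding genes it was 2 and 1. Where each list was first reduced to its top 10000 summits, the median of the 9 genes was 2 sites, against 0 over all genes. F11r then had none, and 16.6% of all protein-coding genes had a site.

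**Figure D1:**
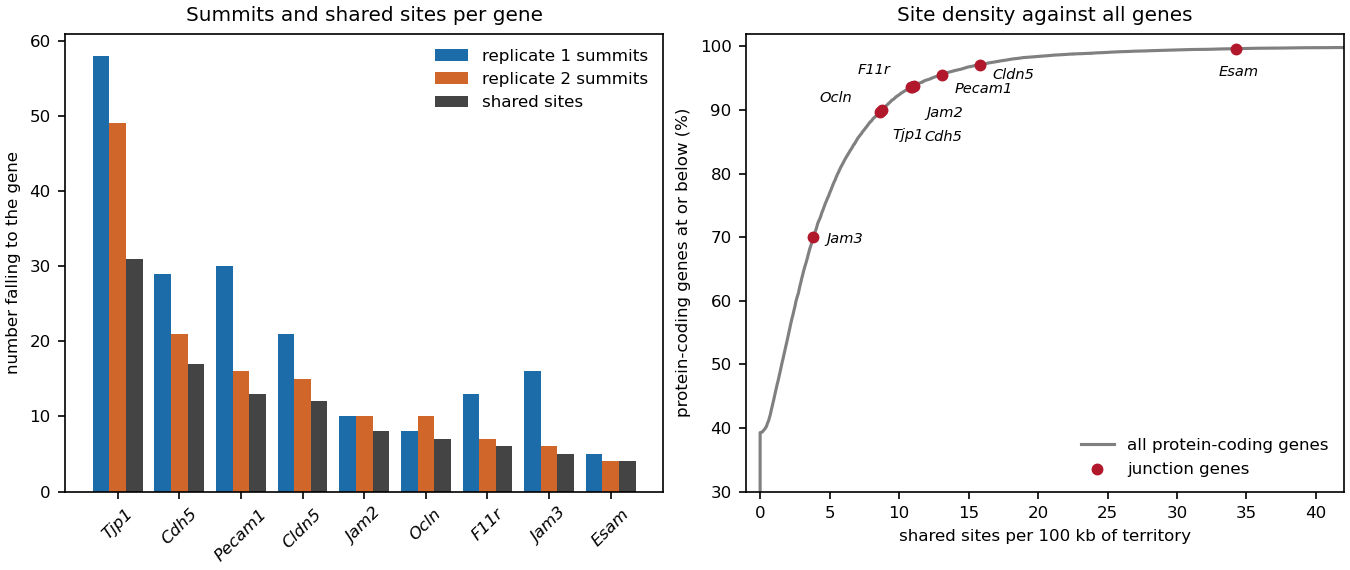
Left, summits of each replicate and shared sites (bar height, number) falling to each of the 9 genes, from Tjp1 with 31 shared sites to Esam with 4. Right, the share of protein-coding genes (%, vertical axis) at or below a given number of shared sites per 100 kb of territory (horizontal axis), with the junction genes as red points. Esam lies farthest right at 34.2 and Jam3 farthest left at 3.84.

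The order of the genes was the same at its ends in both replicates. Tjp1 had 58 summits in replicate 1, 49 in replicate 2 and 31 shared sites, the most of the 9 genes in each count. Cdh5 had 29 summits in replicate 1 and 21 in replicate 2, with 17 shared sites, and Pecam1 had 30 and 16, with 13. These neighbours changed places between the replicates, so their order is not fixed by the data. Cldn5 followed with 21 summits in replicate 1, 15 in replicate 2 and 12 shared sites. Jam2 had 10 summits in each replicate and 8 shared sites. Ocln had 8 summits in replicate 1, 10 in replicate 2 and 7 shared sites. F11r had 13 and 7 summits and 6 shared sites, and Jam3 had 16 and 6 summits and 5 shared sites. The order of Jam2, Ocln, F11r and Jam3 differed between the replicates. Esam was last in both, with 5 and 4 summits, all 4 of the replicate 2 summits being shared.

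The density of sites in the territory gave another order. Tjp1 has a territory of 360 kb and its density was 8.61 sites per 100 kb, near that of Ocln at 8.77. Esam has a territory of only 11.7 kb because annotated ends of its neighbours Msantd2 and Vsig2 lie close by. It reached 34.2 sites per 100 kb, more than 99.6% of protein-coding genes. Cldn5 had 15.8 and Pecam1 13.1 sites per 100 kb. Jam2 (11.04), Cdh5 (10.9) and F11r (10.9) lay close together. Jam3 had the lowest density of shared sites among the 9, at 3.84 per 100 kb, more than 70.0% of protein-coding genes. That place rests on the pairing. By replicate 1 summits alone Jam3, with 16 in 130 kb, was denser than Ocln, with 8 in 79.8 kb. In all, 7 of the 9 genes lay above 90% of protein-coding genes in density, and all 9 lay above the median gene.

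**Figure D2:**
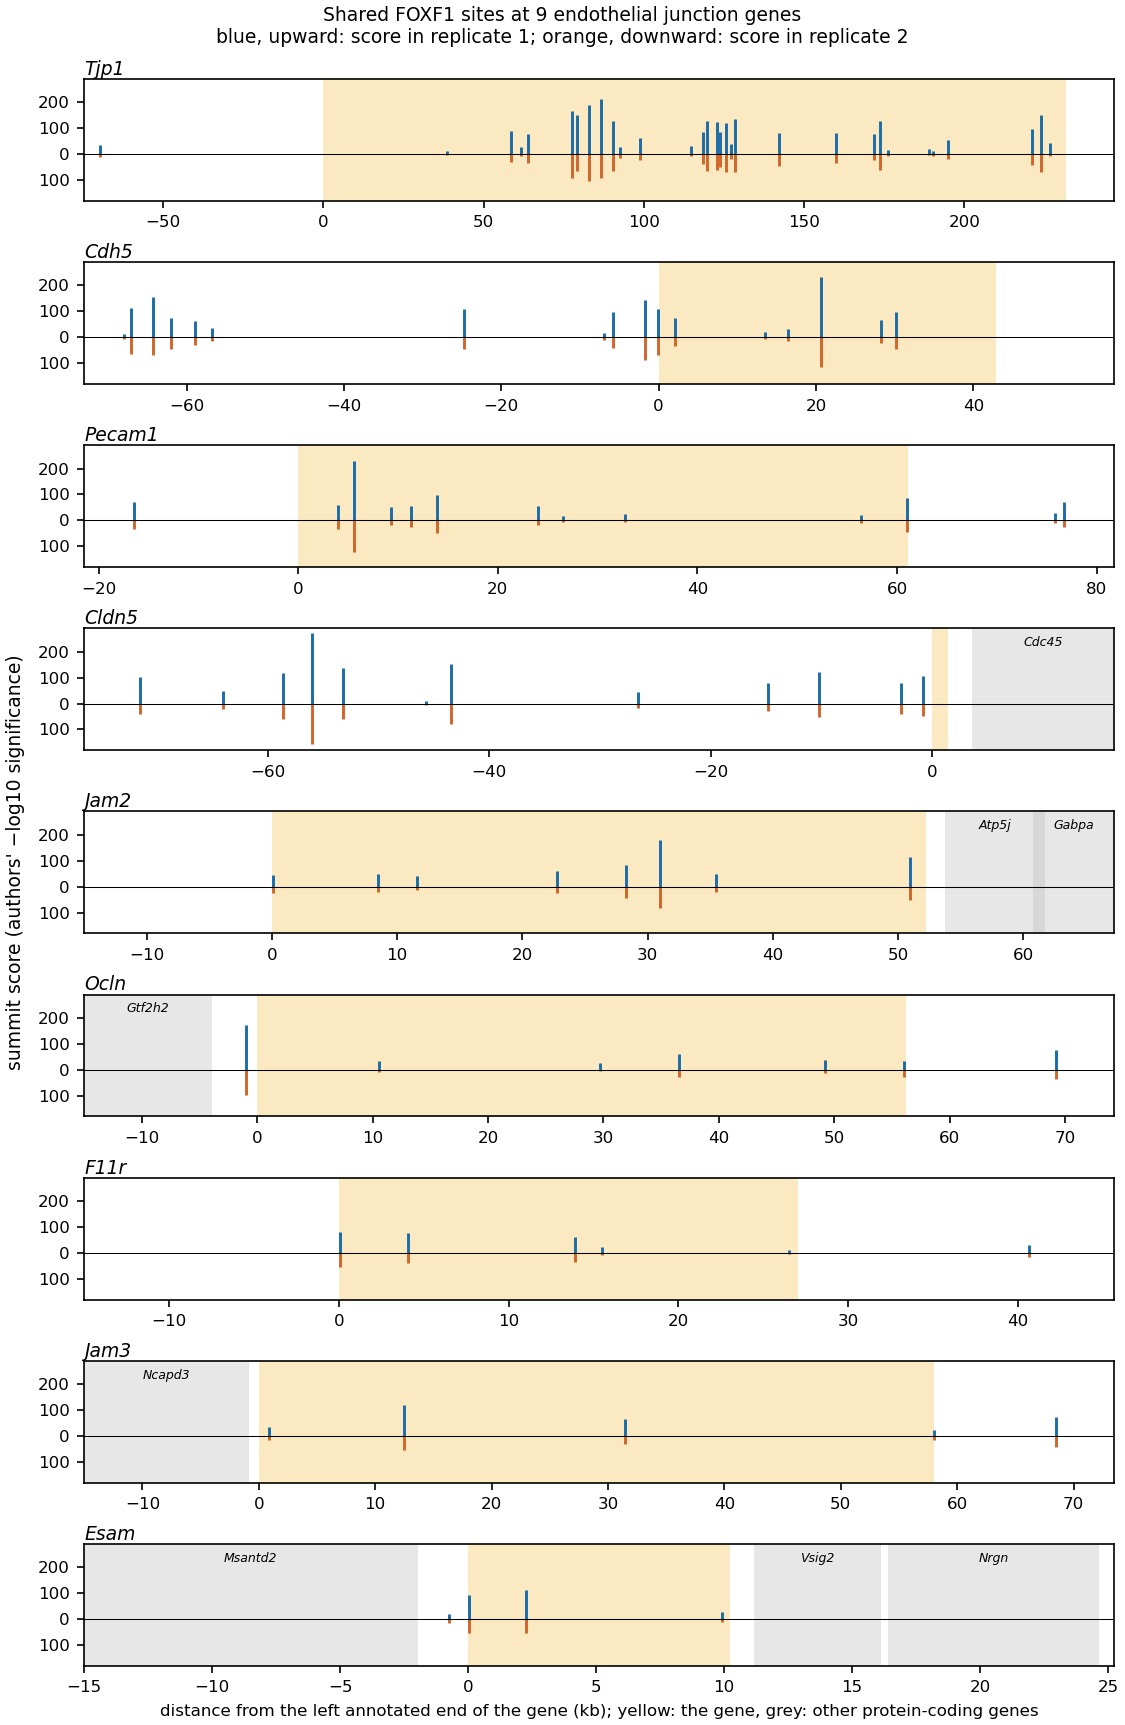
Shared sites of each gene by distance from its left annotated end (horizontal axis, kb), with the score in replicate 1 drawn upward and in replicate 2 downward (vertical axis, −log10 significance). Yellow marks the gene and grey other protein-coding genes. All 12 sites of Cldn5 lie to the left of the gene, and 30 of the 31 sites of Tjp1 lie inside it.

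The adherens junction gene Cdh5, which encodes VE-cadherin, carried sites far to its left, around its left end and inside it. The gene spans chromosome 8, positions 104101613 to 104144504. Of its 17 sites 6 lay inside the gene and 11 to its left, where the next protein-coding gene is more than 100 kb away. The highest lay at 104122308, 20695 bp inside the left end, scoring 232 in replicate 1 and 115.1 in replicate 2, which were ranks 312 and 431 among the shared sites. A site at 104099941, 1672 bp outside the left end, had scores of 144 and 88.2. One at 104037298, 64315 bp outside, had 155 and 68.6. The site nearest an end lay 32 bp outside the left end, with scores of 109.1 and 68.6.

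Runs of sites no more than 5 kb apart held most of them. The run farthest left, from 104033585 to 104044871, had 6 sites over 11.3 kb and its median score was 68.4 in replicate 1 and 37.0 in replicate 2. The next run, over the left end, had 5 sites over 8.93 kb, from 104094697 to 104103630, with medians of 98.2 and 41.2. Long noncoding RNA genes lie over both: Gm32728 holds 2 sites of the first run and Gm29682 all 5 of the next, 1 of which is also inside Cdh5. Where ends of all RefSeq genes competed for a site, Cdh5 had 9 sites instead of 17, and within 20 kb it had 10. A further site at 104000353, with scores of 121 and 53.3, lay 101260 bp from the gene and so just missed the 100 kb limit.

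Pecam1, which encodes an adhesion molecule of endothelial cell contacts that leukocytes engage when they leave the vessel, carried its sites mostly inside the gene. It spans chromosome 11, positions 106654213 to 106715281, and 10 of its 13 sites lay within it. The highest, at 106659789 and 5576 bp inside the left end, scored 228 in replicate 1 and 121 in replicate 2, ranks 343 and 324 among the shared sites. The next were lower in both replicates, with 98.5 and 47.5 at 106668076 and 85.9 and 45.6 at 106715229. The site at 106715229 lay 52 bp inside the right end. A run of 5 sites over 9.84 kb, from 106658241 to 106668076, held the 2 highest.

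In Cldn5 every site lay outside the gene, which is only 1.42 kb long. It spans chromosome 16, positions 18776847 to 18778262. Its 12 sites spread from 71584 to 850 bp to the left of the gene, in a stretch with no other protein-coding gene. The highest of all 103 sites was here, at 18720790 and 56057 bp outside the left end, scoring 273 in replicate 1 and 158 in replicate 2. It ranked 71 and 34 among the shared sites of the replicates. The next were at 18733375, with 153 and 77.2, and at 18723634, with 135 and 61.0. The nearest to the gene, 850 bp outside, had 107 and 47.5.

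The assignment of these distal sites to Cldn5 rests on the rule. Gm41429 and Gm41428, both long noncoding RNA genes, hold 3 sites and 1 site of the 12. With ends of all RefSeq genes competing, or within 20 kb, Cldn5 had 4 sites. Of the 12, 2 lay within 5 kb of the gene, and with sites up to 5 kb away counted regardless of other genes there were 3. The third of these, a site 2623 bp to the right of Cldn5 (scores 80.8 and 34.0), lay inside Cdc45, a DNA replication gene, and was counted there. On the left, the next site, 89683 bp away with scores of 23.5 and 13.9, fell to Septin5.

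Esam, which encodes an immunoglobulin-type adhesion molecule of endothelial tight junctions and platelets, spans chromosome 9, positions 37528089 to 37538319. Its 4 sites were compact. One lay 756 bp outside the left end, scoring 19.1 in replicate 1 and 13.4 in replicate 2. The next lay 14 bp inside that end, with 94.2 and 54.8. Another lay 2266 bp inside, with 111.5 and 54.3, and the last lay 324 bp inside the right end, with 28.8 and 12.1. Both middle sites were well above the outer ones in each replicate. At a shared distance of 50 bp Esam had 2 sites, and with sites up to 5 kb away regardless of other genes it had 8.

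The related adhesion molecule genes Jam2 and Jam3, whose products bind each other across cell contacts, differed in the density of shared sites. In replicate 1 alone the gap was small, with 16 summits in the 130 kb territory of Jam3 and 10 in the 72.4 kb of Jam2. In replicate 2 they had 6 and 10. Jam2 spans chromosome 16, positions 84774123 to 84826380, and all 8 of its sites lay inside it. The highest, at 84805117, scored 182 in replicate 1 and 83.8 in replicate 2, followed by 84825100 with 114 and 51.4 and by 84802391 with 83.6 and 43.7. The site nearest an end lay 103 bp inside the left end, with 44.1 and 25.3.

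Jam3 spans chromosome 9, positions 27097384 to 27155421, is of similar length and had 5 sites. They lay at 27098241 (scores 35.9 and 14.0), 27109852 (119 and 53.3), 27128862 (67.1 and 29.0), 27155354 (22.7 and 14.6) and 27165858 (73.3 and 40.5). The last lay 10437 bp outside the right end, and the site at 27155354 lay 67 bp inside that end. None of its sites was in the highest 10% of both replicates, and 1 of the 8 sites of Jam2 was. Jam3 had 3 sites at a shared distance of 50 bp.

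F11r spans chromosome 1, positions 171437561 to 171464593, and had the lowest maximum of the 9 genes in replicate 1. Its highest site was the one at the start described above, at 171437610, scoring 82.5 in replicate 1 and 56.3 in replicate 2. It was followed by 171441655, with 78.1 and 40.0, and by 171451463, with 59.9 and 34.6. Of its 6 sites, 5 lay inside the gene.

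The scaffold gene Tjp1 spans chromosome 7, positions 65296165 to 65527850, and is the longest of the set at 232 kb. Of its 31 sites 30 lay inside it, and 11 were in the highest 10% of both replicates. The highest lay at 65378984, scoring 189 in replicate 1 and 104.6 in replicate 2, at 65382680, with 214 and 92.1, and at 65373638, with 164 and 92.7. The site nearest an end lay 5060 bp inside the right end, with 41.2 and 8.36. The start whose promoter is printed above lies well inside the annotated gene. Of the 30 inside sites, 26 lay in the 157 kb between the right end and that start, and 4 in the 75.1 kb after it.

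Tjp1 also held the longest runs of sites. A run of 6 sites over 15.1 kb, from 65373638 to 65388700, contained the 3 highest, and its median score was 158 in replicate 1 and 79.0 in replicate 2. A run of 8 sites over 13.8 kb, from 65410912 to 65424699, had medians of 103 and 56.6.

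Ocln spans chromosome 13, positions 100496504 to 100552718, and its highest site lay at the end opposite to its annotated starts. That site, at 100495559 and 945 bp outside the left end, scored 174 in replicate 1 and 97.3 in replicate 2. It lies between Ocln and Gtf2h2, a gene of the general transcription machinery, whose nearer end is 3895 bp from Ocln. The next were 100565762, with 74.8 and 37.3, and 100533089, with 62.3 and 28.4. The site by the starts, 127 bp inside the right end, was lower, with 33.1 and 27.8. To the right, the next site, with 138.6 and 68.6, fell to Marveld2, another tight junction gene.

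Sites close to a gene end were frequent in the set. A site of the gene's own lay within 1 kb of an end in 8 of 9 genes, against 38.6% of all protein-coding genes, Tjp1 being the exception. In 7 of these 8 the nearest site lay 14 to 127 bp from the end, and in Cldn5 it lay 850 bp away. Ends here are starts or ends of transcription, since the gene table gives no strand. The 38.6% counts genes without any site: of the 13289 protein-coding genes with a site, 8445 had one within 1 kb of an end. The junction genes also carried more sites each. In the lists described below it was 10 of 12 adherens junction partners and 8 of 12 other endothelial contact genes. Among tight junction scaffolds and partners it was 9 of 14, and among epithelial junction genes 8 of 16.

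The 103 sites were set beside all shared sites by rank. In replicate 1 the median site of the 9 genes had a score of 73.3, higher than 74.7% of shared sites, and in replicate 2 it had 32.0, higher than 69.7%. In the highest 10% of both replicates were 20 of the 103 sites (19.4%), against 8.05% of all shared sites. These 20 belonged to 6 genes: Tjp1 (11), Cdh5 (3), Cldn5 (3), Pecam1, Jam2 and Ocln. Tjp1 held 11 of the 20 but 31 of the 103 sites, so the 19.4% rests largely on that gene. A gene with such a site was the case for 6 of 9 genes, against 10.2% of all protein-coding genes, and F11r, Jam3 and Esam had none. The 10.2% counts genes without any site, and the 9 genes carried more sites each, with a median of 8 against 1. These shares were not adjusted for the number of sites per gene. Inside a protein-coding gene lay 68.9% of the 103 sites and 57.9% of all shared sites. Tjp1, the longest gene, held 30 of the 71 inside sites of the set, so the higher share rests largely on that gene.

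Within the set the replicates ranked the sites alike. Spearman's rank correlation of the paired scores was 0.967 across the 103 sites and 0.883 across all shared sites. Sites are not independent replicates, and the same input served both lists, so these are descriptions. The median distance between paired summits was 15 bp in the 9 genes and 13 bp over all shared sites.

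**Figure D3:**
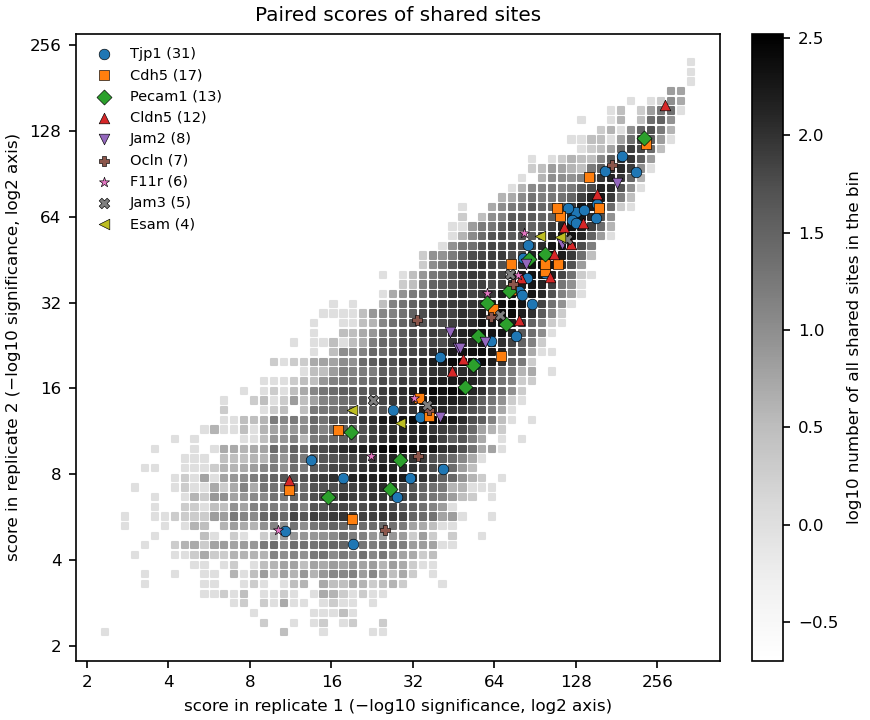
Score of each shared site in replicate 1 (horizontal axis) and replicate 2 (vertical axis), both −log10 significance on log2 axes. Coloured symbols are the 103 sites of the 9 genes, with the number per gene, and grey squares count all 51013 shared sites. The junction sites span scores of 10.2 to 273 in replicate 1 and 4.57 to 158 in replicate 2, with a Cldn5 site highest in both.

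Not every summit of these genes had a partner. Of 190 replicate 1 summits 54.2% were paired, against 47.5% of the whole list, and of 138 replicate 2 summits 74.6% were paired, against 83.4%. The 87 unpaired summits of replicate 1 had a median score of 8.34 and the 35 of replicate 2 a median of 9.22. Within 1 kb of a summit of the other list lay 19 of the 87 and 25 of the 35. Whether an unpaired summit is a difference between the lungs was not tested.

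The highest unpaired summits lay at varied distances from the other list. In replicate 2 the highest was the one at 65371360 by the Tjp1 start (84.9), 2281 bp from the nearest replicate 1 summit. The next, at 106660776 in Pecam1 (74.0), was 991 bp from one. In F11r a replicate 1 summit at 171439294 (70.4) lay 1258 bp from the nearest of replicate 2. Others lay just past the pairing limit. In Pecam1, replicate 1 had a summit at 106674958 (score 128) and replicate 2 one at 106674834 (score 53.3), 124 bp apart. In Tjp1 summits at 65363181 (76.4) in replicate 1 and 65363285 (38.1) in replicate 2 were 104 bp apart. Left of Cdh5, 131 bp separated 104078742 (67.2) in replicate 1 from 104078873 (25.3) in replicate 2. The widest pair that still counted, at 18762059 by Cldn5, had its summits 100 bp apart and scores of 79.2 and 27.8. At a limit of 250 bp the 9 genes had 112 sites.

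Other genes of the same junctions, listed by role, had sites to differing degrees. Of all protein-coding genes 60.7% had a site, with medians of 1 site and 1.55 per 100 kb. Among 12 adherens junction partners all 12 had a site, with a median of 7.5 sites and 4.79 per 100 kb. Ptprm, a receptor phosphatase of cell contacts, had 37, Kdr, the main VEGF receptor of endothelium, 23, and Vcl, which encodes vinculin, 14. Of 14 tight junction scaffolds and partners 13 had a site, with medians of 5.5 and 5.05 per 100 kb. Here the membrane-associated scaffold gene Magi1 had 46, the polarity gene Pard3 20 and Cgnl1, a cingulin relative, 15, and Jaml had none.

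Of 12 other endothelial contact and barrier genes 11 had a site, with medians of 6 sites and 9.83 per 100 kb. The sphingosine phosphate receptor gene S1pr1 had 25, the angiopoietin receptor gene Tek 16 and Cd93 16, while Mmrn2 had none.

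Epithelial junction genes had the lowest medians of these lists, at 2 sites per gene and 3.85 per 100 kb. Both were still above the medians of all protein-coding genes, at 1 and 1.55. Of 16 genes 13 had a site, led by Cdh1, which encodes the epithelial cadherin, with 6, then Cldn3, Cldn4, Cldn10 and Dsp with 5 each. Cldn6, Dsc2 and Marveld3 had none. A site in the highest 10% of both replicates was present in 6 of the 9 endothelial junction genes, 8 of the 12 other endothelial contact genes, 8 of the 12 adherens junction partners, 7 of the 14 tight junction scaffolds and partners and 3 of the 16 epithelial junction genes. Over all protein-coding genes 10.2% had a site that high. A gene with more sites has more chances of such a site, and the shares were not adjusted for this. In the same order, the lists had medians of 8, 6, 7.5, 5.5 and 2 sites per gene. The lists were described and not tested against each other.

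**Figure D4:**
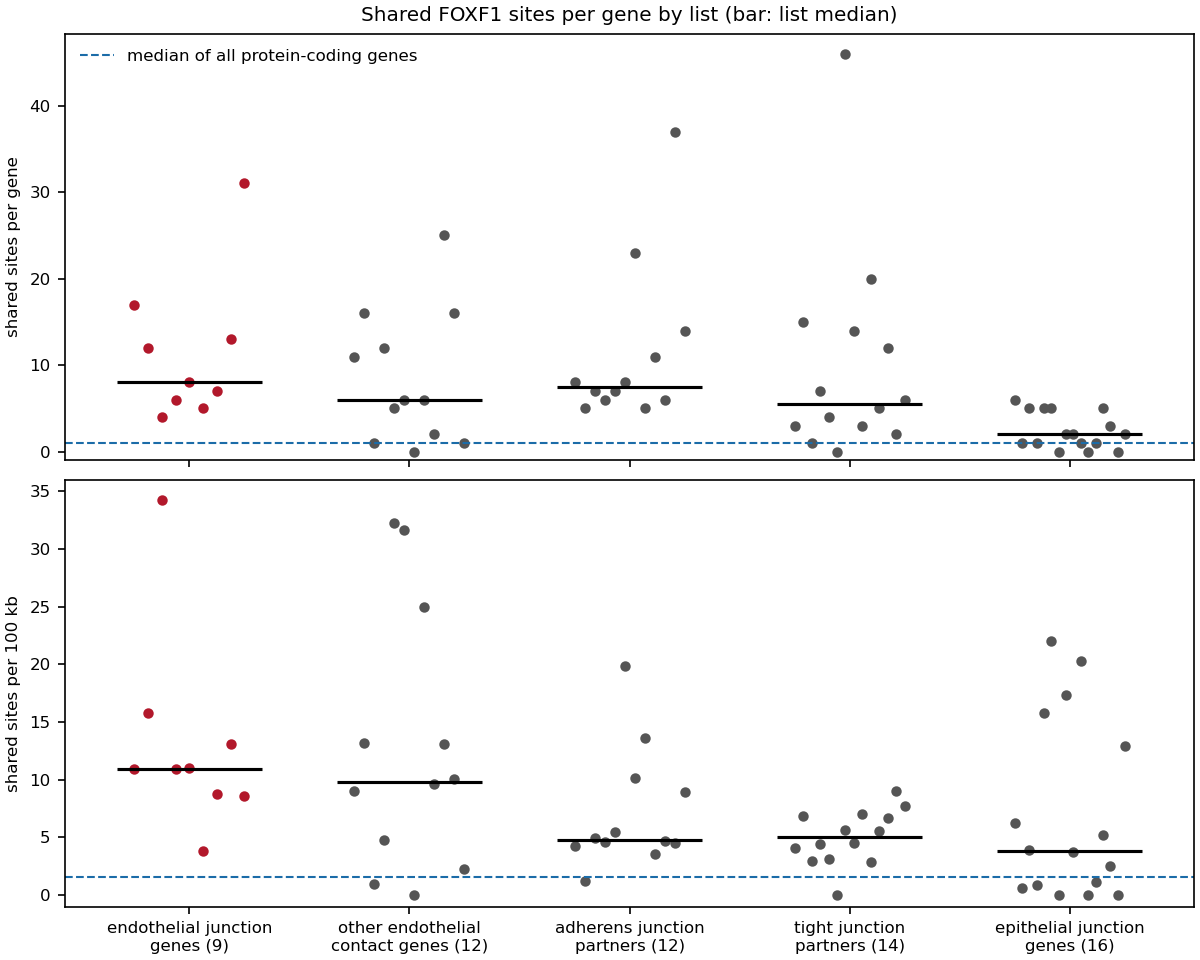
Shared sites per gene (upper panel, number) and per 100 kb of territory (lower panel) for 5 lists of junction genes, 1 point per gene, with the list median as a black bar and the median of all protein-coding genes as a dashed line. The endothelial junction genes at the left, in red, have medians of 8 and 10.9, and the epithelial junction genes at the right have 2 and 3.85.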

How the data were processed

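FOXF1 ChIP-seq summits of 2 replicates were used. Per the submitters' processing notes, the authors called peaks with MACS2 on mm10; aligner, options, version and sequencing depth: not given in the sources used here. Deposited entries each mark a single-base summit whose score is the authors' −log10 significance against the input; the notes do not say if it comes from p or q values. Scores began at 2.04 and 2.02. Of the deposited summits, 10 and 6 mitochondrial ones were set aside.

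Summits were paired and assigned with Python 3.11.15, numpy 2.4.6, pandas 2.3.3 and scipy 1.17.1, after the steps were tested on simulated positions. Genes came from a RefSeq table on GRCm38.p6, the assembly of mm10, which gives ends but no strand or exons; no genome sequence was used. Promoter windows came from a RefSeq table. All 9 genes and all listed genes were found.

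Named were all 9 genes, every site of a gene with 5 or fewer, otherwise the 3 highest by mean rank and the one nearest an end; for each other list, the 3 genes with most sites, ties included, and those with none. A further list is not reported here. Neighbouring genes, runs and unpaired summits were named after their values were seen. The members and lists were chosen with earlier results of these data known. With 1 group, no test between conditions exists. Nothing shows how much of the spread between pools is technical. The alternatives changed the pairing distance, score, window, competing genes and replicate.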

Additional observations from a re-analysis of the deposited data

How the results depend on the processing

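All 9 genes kept at least 1 site under every setting tried except the 10000 highest summits of each replicate, where 8 did. Of all protein-coding genes 16.6% had a site with those 10000 summits, and 56.3% to 72.4% under the other settings. Tjp1 had the most sites of the 9 genes in each setting. The median number of sites per gene was 8, and 2 with those 10000 summits, against 1 and 0 over all genes. Under the other settings that kept both replicates it was 6 to 9, against 1 over all genes. It was 10 to 16 with 1 replicate left out, since unpaired summits then count, against 1 to 2 over all genes. The median density was 10.9 sites per 100 kb, against 1.55 over all genes. It was 2.76 with the 10000 highest summits, against 0 over all genes. With 1 replicate left out it was 13.6 to 18.6, against 2.14 to 3.96. The median of the genes' highest sites, as the percent of a whole list that scored lower, was 98.4; it was 97.9 within 20 kb, within 5 kb and with all RefSeq genes competing, and 98.3 to 98.8 with 1 replicate left out. Among single genes, a pairing limit of 250 bp and a score of at least 10 moved no count by over 1.5 times, while the 10000 highest summits moved all 9. Leaving out replicate 2 moved 6 counts by more than that, and leaving out replicate 1 moved 1. Counting sites inside or within 5 kb regardless of other genes moved 3. A pairing limit of 50 bp, the 20 kb window and all RefSeq genes competing moved 2 each.

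The planned change in the width of sequence read around a site was not run, since no genome sequence was used. No paired analysis was possible because the input has no list of its own here and there is only 1 group. The depth behind the scores is unknown, and with 2 replicates no error can be given for a gene's count beyond the 2 lists themselves.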

Other observations

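Promoter windows with a shared FOXF1 site were compared with all windows for the motifs searched above, over the 250 bases before each start. Such a site was present in 5162 of 32851 windows. The ETS core CCGGAA was found in 29.0% of the windows with a site and in 12.0% of all windows. The forkhead core TGTTTAC was found in 3.43% of the windows with a site and in 3.17% of all windows, TGTTTGC in 3.02% and 4.30%, and the looser TGTTTNC in 15.0% and 17.8%. The AP-1 site TGANTCA was found in 3.33% and 6.75%, and AGGAAG in 29.9% and 29.5%. These shares were not tested, windows of neighbouring starts can overlap, and base composition was not matched.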
